A study of Homo sapiens with 12 samples.

Results

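The nuclear genes for subunits of the oxidative phosphorylation complexes were taken from the deposited table by their symbols, as the rows beginning with NDUFA, NDUFB, NDUFC, NDUFS, NDUFV, UQCR, COX4, COX5, COX6, COX7, COX8 or ATP5, leaving out the NDUFAF assembly factors. The rule found 75 of the 13091 genes listed, with 38 in complex I, 9 in complex III, 11 in complex IV and 17 in complex V. All 75 averaged 1 CPM or more in both cell lines and none was at 0 in any library. Measured values played no part in the rule. By what is known of them, 4 of the 75 stand outside the subunits proper. These are ATP5S and ATP5SL, which are not part of the ATP synthase itself, UQCRHL, a retrocopy of UQCRH, and COX7A2L, which joins complexes III and IV into supercomplexes.

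The study is about ONECUT2, a transcription factor, in gastric cancer, and its overexpression is the perturbation compared here. RNA sequencing libraries of 2 established human gastric cancer lines, AGS and MKN74, were analysed, with 1 ONECUT2 overexpression library and 1 control library per line. The groups are therefore AGS with ONECUT2 overexpression, AGS control, MKN74 with ONECUT2 overexpression and MKN74 control. The chromatin immunoprecipitation samples of the same lines were not analysed here. The vector, the duration, and whether the cells were pools or single clones are not given in the labels used here.

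Complex I takes electrons from NADH, complex III passes them from ubiquinol to cytochrome c, and complex IV passes them to oxygen, while each pumps or releases protons across the inner mitochondrial membrane. Complex V, the ATP synthase, lets the protons flow back and makes ATP. A few catalytic subunits are encoded in mitochondrial DNA and all the others in the nucleus, so each complex is built from both sets, and gastric glands hold acid-secreting cells that are rich in mitochondria.

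Levels are in CPM, counts scaled to a shared library total, so a lower value is a lower share of the reads and not an absolute amount of RNA. Changes are on the log2(CPM + 1) scale, with the control value subtracted from the overexpression value, and on this scale low genes show less change than their ratio. Members are counted as higher or lower in a line where the change is at least 0.32 in size, and the same limit was set for all genes. A 2-fold limit was used beside it. With 1 library per group no change within a line has a replicate check or a test, and the intervals given on ratios of CPM are exact at 95% and cover counting error only. In bulk RNA, fewer cells of a kind and less RNA per cell cannot be told apart. Libraries held 36097456 to 38110453 listed reads, and the fewest reads of any member in any library were 58. ONECUT2 itself had 18.3 CPM in AGS overexpression against 4.39 CPM in AGS control, and 57.6 CPM in MKN74 overexpression against 5.14 CPM in MKN74 control. All 5 general epithelial markers were listed. Most of their reads were of KRT8 and KRT18, and they summed to 4729 CPM in AGS overexpression, 5420 CPM in AGS control, 8437 CPM in MKN74 overexpression and 13670 CPM in MKN74 control. EPCAM and CDH1 went the other way in both lines. KRT19 did so in AGS alone, with 725 CPM in AGS overexpression against 683 CPM in AGS control. EPCAM had 566 CPM in AGS overexpression against 508 CPM in AGS control, and 673 CPM in MKN74 overexpression against 457 CPM in MKN74 control. Of the endothelial markers 0 of 4 were listed, of the fibroblast markers 1 of 5 and of the immune markers 2 of 5. Lysozyme, an immune marker that gastric epithelium also secretes, had 7066 CPM in AGS overexpression and 7661 CPM in AGS control.

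In AGS the oxidative phosphorylation genes were mostly lower in the overexpression library, and in MKN74 most differed little. In AGS, 39 of the 75 members (52.0%) were lower with overexpression by at least 0.32, against 20.1% of the 11675 genes tested in that line. NDUFA7 and ATP5D were the 2 members at least that much higher (2.67%), against 23.0% of all genes, and the other 34 lay between. The median change of the members was -0.38, with the middle of the distribution between -0.55 and -0.16, against a median of -0.0034 over all genes. Of the members, 63 had a change below 0 (84.0%), against 50.3% of all genes. The differences were mostly shallow. On the log2(CPM + 1) scale 0 members were 2-fold lower, against 0.728% of all genes, while 0 were 2-fold higher, against 4.19%. ATP5E, a gene of few reads, was more than 2-fold lower by its ratio of CPM, 0.367. Its change was -1.38 with a pseudocount of 0.1 and -1.10 under quantile normalization. The changes ran from -0.99 for ATP5E to 0.39 for ATP5D.

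In MKN74, 3 of 75 members were lower by at least 0.32, against 13.2% of 11914 genes, and 4 were higher by at least that much, against 14.4%. Those lower were UQCRC2, ATP5F1 and COX5A, and those higher were NDUFA8, COX7A2, ATP5J and COX5B. The other 68 lay between, and the changes of the members had an SD of 0.181, against 0.529 over all genes. The median change was 0.04, against -0.02 over all genes. No member reached 2-fold, against 1.35% of all genes lower and 3.26% higher by that much.

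**Figure D1:**
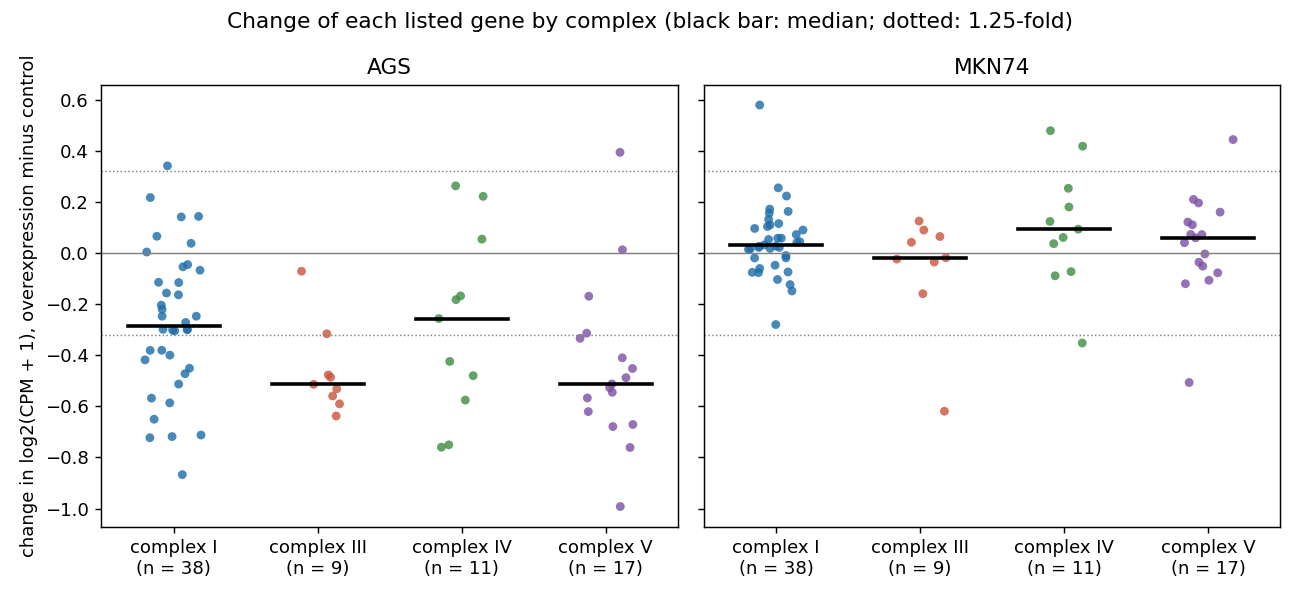
Change of each of the 75 members (overexpression minus control, log2(CPM + 1)) by complex, with AGS and MKN74 drawn apart and the median of each complex marked. In AGS all 9 members of complex III lie below 0 and the medians of complexes III and V are both -0.51, while the MKN74 medians lie between -0.02 and 0.09.

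All the complexes had a median below 0 in AGS, and complexes III and V were lower than complexes I and IV. In AGS the median change was -0.28 in complex I, -0.51 in complex III, -0.26 in complex IV and -0.51 in complex V. Members lower by at least 0.32 numbered 14 of 38 in complex I, 7 of 9 in complex III, 5 of 11 in complex IV and 13 of 17 in complex V. In MKN74 the medians were 0.03, -0.02, 0.09 and 0.06 in the same order of complexes. Under quantile normalization the complex IV median was -0.12 in AGS and 0.20 in MKN74, and with recovered library totals the complex III median in MKN74 was 0.04, above 0. The complex IV median also depends on its members. Among the subunits proper the AGS medians were -0.28 in complex I, -0.50 in complex III, -0.34 in complex IV and -0.53 in complex V. With NDUFA4 placed in complex IV they were -0.27 in complex I and -0.34 in complex IV. No difference between complexes was tested, since each line has 1 library per group.

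Summed over its members, each complex took a smaller share of the reads in AGS overexpression than in AGS control. Complex I came to 2634 CPM in AGS overexpression and 3169 CPM in AGS control, a ratio of 0.831 (interval 0.825 to 0.838). The same sum in MKN74 was 3467 CPM with overexpression and 3431 CPM in control, a ratio of 1.01 (1.003 to 1.018). Complex III came to 1092 CPM in AGS overexpression and 1503 CPM in AGS control, a ratio of 0.727 (0.718 to 0.736). In MKN74 it was also lower, with 1438 CPM in overexpression and 1521 CPM in control, a ratio of 0.945 (0.935 to 0.956). Most of that MKN74 gap was UQCRC2, with 123 CPM in overexpression against 190 CPM in control. The accessory genes of complex III summed to a ratio of 0.993 (0.981 to 1.006) in MKN74. For complexes I and III the AGS libraries lay further apart than the MKN74 libraries. Complex IV came to 1675 CPM in AGS overexpression and 2163 CPM in AGS control, a ratio of 0.774 (0.767 to 0.782). Its sum was higher in MKN74, with 1999 CPM in overexpression and 1884 CPM in control, a ratio of 1.06 (1.05 to 1.07). The largest MKN74 gaps in complex IV were those of COX7A2, 201 CPM against 144 CPM, and COX5B, 203 CPM against 152 CPM. These made up most of the gap in the sum, and 3 of the 11 members had an MKN74 change below 0. The sum of complex IV was thus below control in AGS and above control in MKN74. Complex V showed the lowest ratio in AGS, 0.694 (0.688 to 0.700), with 2212 CPM in overexpression and 3187 CPM in control. In MKN74 it was 3381 CPM in overexpression and 3492 CPM in control, a ratio of 0.968 (0.961 to 0.975). There ATP5F1, with 377 CPM in overexpression against 536 CPM in control, differed by more than the whole sum. Of the 17 members of complex V, 10 had an MKN74 change above 0. All 75 members together came to 7613 CPM in AGS overexpression against 10021 CPM in AGS control, and to 10285 CPM in MKN74 overexpression against 10328 CPM in MKN74 control. The AGS overexpression library thus stood below the other 3, which were close to each other. Listed genes together made up 84.4% of the authors' scaling total in AGS overexpression against 88.1% in AGS control, and 83.1% in MKN74 overexpression against 86.4% in MKN74 control.

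**Figure D2:**
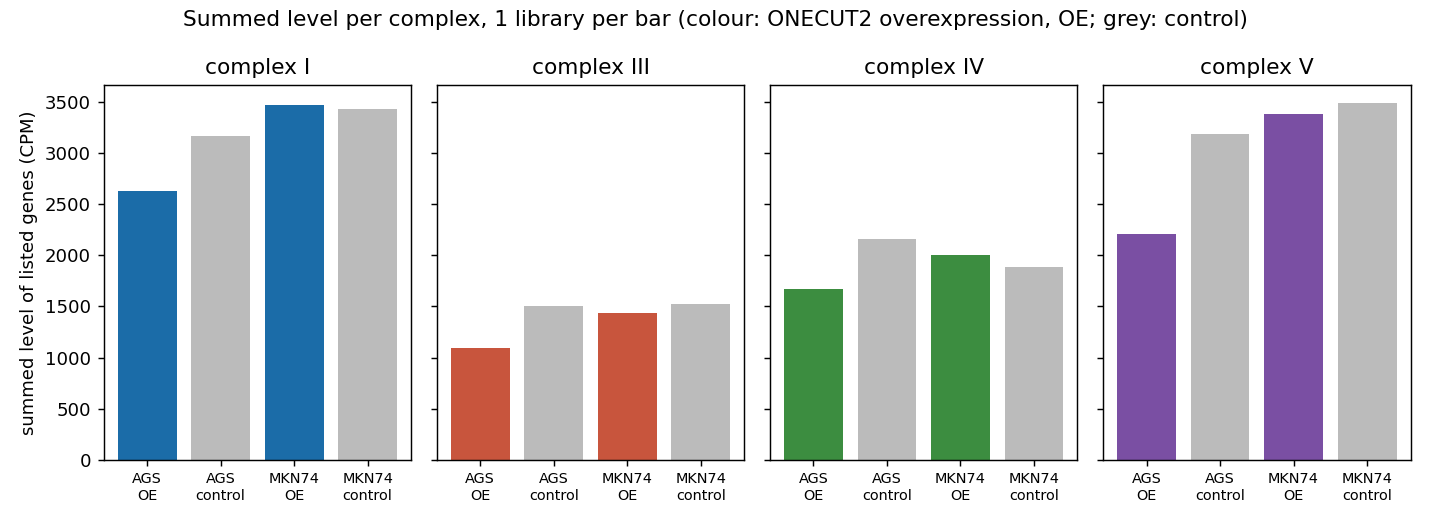
Summed level (CPM, axis from 0) of the members of complexes I, III, IV and V in the 4 libraries, overexpression left of control in each line. In all 4 complexes the AGS overexpression bar is below the AGS control bar, and complex V shows the largest gap, with 2212 CPM against 3187 CPM.

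The redox core of complex I showed no shared lower level in AGS. Of the 7 core subunits around the flavin and the iron-sulfur clusters, 1, NDUFS1, was lower by at least 0.32, a share near the 20.1% of all genes. NDUFS1, the largest iron-sulfur subunit of the NADH-oxidizing module, had 109.9 CPM in AGS overexpression against 151 CPM in AGS control, and 144 CPM in MKN74 overexpression against 159.8 CPM in MKN74 control, changes of -0.45 and -0.15. NDUFV1, which binds NADH and the flavin, had 97.5 CPM in AGS overexpression against 88.3 CPM in AGS control, and 135 CPM in MKN74 overexpression against 130.4 CPM in MKN74 control. These catalytic genes therefore lay on either side of control in AGS. Further AGS changes in the core were -0.27 for NDUFS3, -0.25 for NDUFV2, 0.07 for NDUFS8 and 0.14 for NDUFS7, the last holding the cluster that hands electrons to ubiquinone. In MKN74 the changes of those last genes lay between 0.01 (NDUFS3) and 0.17 (NDUFS7).

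The accessory subunits of complex I, which surround the core and are needed to assemble it, are 31 of its 38 members and held 13 of the 14 that were lower in AGS. The difference from the core was not tested. In AGS the NDUFA genes had a median of -0.30 with 5 of 14 lower, the NDUFB genes a median of -0.30 with 5 of 11 lower, and NDUFC1, NDUFC2, NDUFV3 and the accessory NDUFS genes a median of -0.27 with 3 of 6 lower. NDUFB2, a small subunit of the membrane arm, had 12.8 CPM in AGS overexpression against 24.2 CPM in AGS control, and 33.5 CPM in MKN74 overexpression against 32.1 CPM in MKN74 control. Its AGS level with overexpression was well below control, a ratio of 0.529 (interval 0.476 to 0.588) and a change of -0.87, the lowest of the complex. NDUFA1, an X-linked membrane-arm subunit, had 106 CPM in AGS overexpression against 175 CPM in AGS control, and 101 CPM in MKN74 overexpression against 92.0 CPM in MKN74 control, changes of -0.72 and 0.13. For both genes the AGS libraries stood apart and the MKN74 libraries lay close together. NDUFC2, a membrane-arm subunit, had 5.97 CPM in AGS overexpression against 10.5 CPM in AGS control, and 9.71 CPM in MKN74 overexpression against 7.97 CPM in MKN74 control, with changes of -0.72 and 0.26. NDUFA4, first assigned to complex I and now placed in complex IV, was past the limit in AGS alone, with 117 CPM in AGS overexpression against 184 CPM in AGS control, and 171 CPM in MKN74 overexpression against 208 CPM in MKN74 control and changes of -0.65 and -0.28.

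Other accessory genes of complex I went against the group. NDUFA7, a subunit of the matrix arm, had 36.9 CPM in AGS overexpression against 28.9 CPM in AGS control, and 27.4 CPM in MKN74 overexpression against 24.4 CPM in MKN74 control, and its AGS ratio was 1.28 (interval 1.18 to 1.38). NDUFA13, also known as GRIM-19 and tied to cell death signalling as well as to the complex, had 176 CPM in AGS overexpression against 151 CPM in AGS control, and 145 CPM in MKN74 overexpression against 141 CPM in MKN74 control, changes of 0.22 and 0.04. In AGS NDUFA7 was past the limit and NDUFA13 was not, and in MKN74 neither was. Under a common median of the libraries the AGS change of NDUFA7 was 0.31 and within the limit. NDUFA8, a subunit on the intermembrane-space side, was within the limit in AGS and had the highest MKN74 change of any member. It had 42.3 CPM in AGS overexpression against 52.5 CPM in AGS control, and 92.7 CPM in MKN74 overexpression against 61.7 CPM in MKN74 control, with changes of -0.30 and 0.58 and an MKN74 ratio of 1.503 (interval 1.43 to 1.58). The remaining 22 genes of complex I had changes of -0.71 to 0.04 in AGS, 9 of them past the limit, and of -0.12 to 0.22 in MKN74.

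The promoter of NDUFA7 is shown as that of the highest complex I member in AGS. It spans 250 bases before to 50 bases after the RefSeq start, at chr19:8321326-8321625 on the minus strand of GRCh38.p14, in lower case from 5′ to 3′. Capitals mark the letters AAGATGGCG, the core of the motif of YY1, a transcription factor known to act on mitochondrial genes.
NDUFA7: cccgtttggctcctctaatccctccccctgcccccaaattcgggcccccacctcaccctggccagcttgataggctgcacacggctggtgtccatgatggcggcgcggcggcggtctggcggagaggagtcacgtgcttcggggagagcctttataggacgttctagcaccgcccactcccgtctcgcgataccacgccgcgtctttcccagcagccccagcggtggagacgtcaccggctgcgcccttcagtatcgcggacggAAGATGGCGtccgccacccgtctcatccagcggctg

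In complex III every member had a change below 0 in AGS. UQCRFS1, the Rieske iron-sulfur protein that moves electrons from ubiquinol to cytochrome c1, had 115 CPM in AGS overexpression against 179.6 CPM in AGS control, and 81.9 CPM in MKN74 overexpression against 76.9 CPM in MKN74 control. Its AGS change of -0.64 was the lowest of the complex, a ratio of 0.641 (interval 0.618 to 0.664), and its MKN74 change was 0.09. UQCRQ, which lies beside cytochrome b, had 26.2 CPM in AGS overexpression against 39.9 CPM in AGS control, and 35.5 CPM in MKN74 overexpression against 33.9 CPM in MKN74 control, changes of -0.59 and 0.07. UQCRB, which lies near the ubiquinone site, had 188 CPM in AGS overexpression against 273 CPM in AGS control, and 517 CPM in MKN74 overexpression against 525 CPM in MKN74 control, changes of -0.53 and -0.02. UQCRHL had AGS and MKN74 changes of -0.56 and -0.02, and UQCRH, the hinge protein it copies, -0.51 and -0.03. These accessory genes were past the limit in AGS and within 0.1 of 0 in MKN74. Reads of the UQCRH and UQCRHL pair may have been split between near-identical sequences, so UQCRHL is uncertain.

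Of the large core proteins of complex III, UQCRC2 was past the limit in both lines and UQCRC1 in neither. UQCRC2 had 183 CPM in AGS overexpression against 256 CPM in AGS control, and 123 CPM in MKN74 overexpression against 189.7 CPM in MKN74 control, so it was lower in both lines, with changes of -0.48 and -0.62. In MKN74 its ratio of 0.649 (interval 0.627 to 0.672) was the lowest of all members. UQCRC1, its partner, had 150.5 CPM in AGS overexpression against 188 CPM in AGS control, and 121 CPM in MKN74 overexpression against 135 CPM in MKN74 control, changes of -0.316 and -0.16. The AGS change of UQCRC1 lay just within the limit, and under a common median of the libraries it was -0.35 and past it. UQCR11, the smallest subunit, differed least in AGS, with 118 CPM in AGS overexpression against 124 CPM in AGS control, a change of -0.07.

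Complex IV was mixed in AGS, with 5 members lower by at least 0.32, 3 above 0 and changes from -0.76 to 0.26. COX6B1, which faces the intermembrane space near the cytochrome c site, had 201 CPM in AGS overexpression against 341 CPM in AGS control, and 169.5 CPM in MKN74 overexpression against 162 CPM in MKN74 control. The AGS ratio was 0.589 (interval 0.574 to 0.605), a change of -0.76, while the MKN74 change was 0.06. The small membrane subunits COX7B and COX7C followed the same course. COX7B had 104 CPM in AGS overexpression against 176 CPM in AGS control, and 137 CPM in MKN74 overexpression against 134 CPM in MKN74 control, changes of -0.75 and 0.04. COX7C had 288 CPM in AGS overexpression against 429.7 CPM in AGS control, and 261 CPM in MKN74 overexpression against 274 CPM in MKN74 control, changes of -0.58 and -0.07. For these genes the AGS overexpression library was well below AGS control, and the MKN74 pair was nearly level. COX6C, another small membrane subunit, had AGS and MKN74 changes of -0.48 and -0.09.

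Other complex IV genes did not share one course. COX4I1, the subunit through which ATP acts on the enzyme, had 229 CPM in AGS overexpression against 273 CPM in AGS control, and 233 CPM in MKN74 overexpression against 218 CPM in MKN74 control, changes of -0.26 and 0.09. COX5A, a matrix-side subunit, had 96.6 CPM in AGS overexpression against 92.9 CPM in AGS control, and 118 CPM in MKN74 overexpression against 151 CPM in MKN74 control, with changes of 0.05 and -0.35. It was past the limit in MKN74 as deposited, and within it under quantile normalization (-0.29) and recovered library totals (-0.30). COX5B, a zinc-binding matrix-side subunit, was higher by at least 0.32 in MKN74 and by less in AGS, with 148 CPM in AGS overexpression against 124 CPM in AGS control, and 203 CPM in MKN74 overexpression against 152 CPM in MKN74 control. Its ratio was 1.20 (interval 1.158 to 1.247) in AGS and 1.34 (interval 1.297 to 1.383) in MKN74. COX7A2 went opposite ways in the lines. It had 125 CPM in AGS overexpression against 168 CPM in AGS control, and 201 CPM in MKN74 overexpression against 144 CPM in MKN74 control, a ratio of 0.744 (interval 0.718 to 0.771) in AGS and of 1.40 (interval 1.35 to 1.44) in MKN74. Its relative COX7A2L, the supercomplex factor, was within the limit in both, with 96.7 CPM in AGS overexpression against 82.7 CPM in AGS control, and 108 CPM in MKN74 overexpression against 90.1 CPM in MKN74 control and changes of 0.22 and 0.25. COX6A1 and COX8A lay within the limit in AGS, with changes of -0.17 and -0.18, and in MKN74 their changes were 0.12 and 0.18.

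In complex V the catalytic head was lower in AGS except for 1 of its subunits. ATP5B, the beta subunit that holds the catalytic sites, had 662 CPM in AGS overexpression against 1018 CPM in AGS control, and 898 CPM in MKN74 overexpression against 900.0 CPM in MKN74 control, with an AGS ratio of 0.650 (interval 0.640 to 0.660). ATP5A1, the alpha subunit that alternates with it, had 263 CPM in AGS overexpression against 385 CPM in AGS control, and 264 CPM in MKN74 overexpression against 287 CPM in MKN74 control, changes of -0.54 and -0.12. ATP5C1, the rotating gamma shaft, had 167 CPM in AGS overexpression against 247 CPM in AGS control, and 243 CPM in MKN74 overexpression against 231 CPM in MKN74 control, changes of -0.57 and 0.07. So the main parts of the head were lower together in AGS, with little difference in MKN74. ATP5E and ATP5D, the epsilon and delta subunits at the foot of the gamma shaft, lay at opposite ends of the AGS range. ATP5E had 1.34 CPM in AGS overexpression against 3.66 CPM in AGS control, and 3.99 CPM in MKN74 overexpression against 3.85 CPM in MKN74 control. Its AGS values rested on 58 reads with overexpression and 150 reads in control, a ratio of 0.367 (interval 0.266 to 0.500), the lowest of any member. ATP5D had 42.5 CPM in AGS overexpression against 32.1 CPM in AGS control, and 16.0 CPM in MKN74 overexpression against 14.2 CPM in MKN74 control, with an AGS ratio of 1.32 (interval 1.23 to 1.42), and was within the limit in MKN74.

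The promoter of ATP5E is shown as that of the member with the lowest AGS ratio. The window of the same extent lies at chr20:59032286-59032585 on the minus strand of GRCh38.p14. It held no exact match to the searched motifs given further on, so no letters are in capitals.
ATP5E: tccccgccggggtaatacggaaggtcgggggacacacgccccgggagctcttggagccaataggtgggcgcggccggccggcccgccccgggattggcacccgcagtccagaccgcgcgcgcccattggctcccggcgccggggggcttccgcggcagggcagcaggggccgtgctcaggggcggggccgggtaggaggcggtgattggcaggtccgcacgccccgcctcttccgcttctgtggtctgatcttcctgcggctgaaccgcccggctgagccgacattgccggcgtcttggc

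The stalk and membrane parts of complex V were also lower in AGS. The peripheral stalk genes, whose products hold the head still, had a median AGS change of -0.47 with 3 of 4 lower. ATP5F1, the stalk subunit b, was lower in both lines, with 169.7 CPM in AGS overexpression against 245 CPM in AGS control, and 377 CPM in MKN74 overexpression against 536 CPM in MKN74 control. Its ratio was 0.693 (interval 0.672 to 0.714) in AGS and 0.703 (interval 0.690 to 0.718) in MKN74. ATP5J, the coupling factor of the stalk, went opposite ways in the lines, with 68.7 CPM in AGS overexpression against 111 CPM in AGS control, and 121 CPM in MKN74 overexpression against 88.6 CPM in MKN74 control. Its ratio was 0.621 (interval 0.593 to 0.651) in AGS and 1.36 (interval 1.31 to 1.42) in MKN74. The 3 genes for small membrane subunits that join the synthase into dimers had a median AGS change of -0.51, and all 3 were past the limit. These and 3 others, the 6 genes of complex V not named singly, had changes of -0.67 to -0.31 in AGS, 5 of them past the limit, and of 0.06 to 0.21 in MKN74. ATP5S was level in both lines, with changes of 0.01 and -0.04.

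ATP5G1, ATP5G2 and ATP5G3 encode the same mature c subunit, the ring that protons turn, with different import sequences. ATP5G1 had 45.4 CPM in AGS overexpression against 77.7 CPM in AGS control, and 111 CPM in MKN74 overexpression against 119.6 CPM in MKN74 control, changes of -0.76 and -0.11. ATP5G3 had 195 CPM in AGS overexpression against 274 CPM in AGS control, a change of -0.49, and ATP5G2 94.9 CPM in AGS overexpression against 107 CPM in AGS control, a change of -0.17. The AGS libraries thus differed more in ATP5G1 than in ATP5G2. Of the reads of the c-ring genes, ATP5G1 took 13.5% (exact interval 13.0% to 14.1%) in AGS overexpression and 16.9% (16.4% to 17.5%) in AGS control. ATP5G2 took 28.3% (27.6% to 29.0%) in AGS overexpression and 23.3% (22.7% to 23.9%) in AGS control. In MKN74 the ATP5G1 share was 18.1% (17.6% to 18.5%) with overexpression and 18.4% (18.0% to 18.9%) in control, and those intervals overlap.

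The signs of the changes were compared between the lines, beside those of all genes. The sign was below 0 in AGS and above 0 in MKN74 for 39 members, below 0 in both for 24, above 0 in both for 9 and above 0 in AGS and below 0 in MKN74 for 3. Over the 10766 genes tested in both lines these counts were 2214, 3340, 2761 and 2451, in the same order. The share below 0 in both was thus near that of all genes. Of the 75 members, 66 had a higher change in MKN74 than in AGS, against 5568 of the 10766 genes. The median difference was 0.37 against 0.02 over all genes. UQCRC2 and ATP5F1 were the 2 members lower by at least 0.32 in both lines, and no member was that much higher in both. ATP5J and COX7A2 were the 2 members lower in AGS and higher in MKN74, each by at least 0.32. Genes past that size in both lines were not counted over all genes. Across the 75 members, which share the same 4 libraries, the changes in the lines had a Pearson r of 0.139 and a Spearman rho of 0.121. Over 10766 genes tested in both lines these were 0.087 and 0.138. Members are not independent replicates, so these correlations are descriptions. The difference between the lines' changes could not be tested, since it would leave no residual degrees of freedom.

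**Figure D3:**
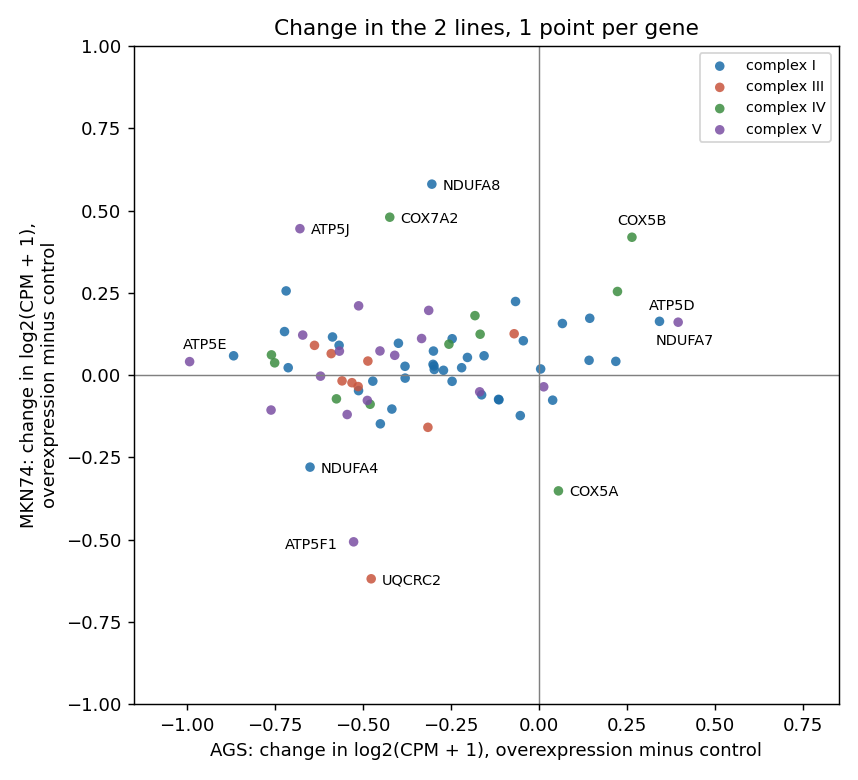
Change of each member in AGS (horizontal axis) and in MKN74 (vertical axis), overexpression minus control in log2(CPM + 1), coloured by complex. Most points lie left of 0 and close to the horizontal line, 39 of 75 fall left of 0 and above it, and UQCRC2 and ATP5F1 lie low on both axes.

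An overexpression effect shared by the lines was tested with limma, with the cell line as a covariate and 1 residual degree of freedom. With 1 library per group, the residual spread of a gene is the difference between its changes in the lines. At a Benjamini-Hochberg adjusted p under 0.05, 0 of 75 members were called and 0.0% of 12340 genes. At an unadjusted p under 0.05 there were 2 members and 566 genes, and limma's voom on the recovered reads also called 0 genes, with 902 at that unadjusted level. The 2 members were UQCRC2, with a shared change of -0.55 (SE 0.16, limma adjusted p = 0.8), and ATP5F1, with -0.52 (SE 0.16, limma adjusted p = 0.8). Both were lower with overexpression in 2 of 2 lines. Members with a shared change below 0 numbered 61 of 75, and the median was -0.15.

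The lines themselves differed in part of these genes. With the same limma fit, 25 members (33.3%) passed an adjusted p of 0.05 between MKN74 and AGS. MKN74 was higher in 16 members (21.3%), against 20.9% of all genes, and lower in 9 (12%), against 22.3% of all genes. The share higher was thus near the background and the share lower was under it, a difference that was not tested. The calls numbered 13 of 38 in complex I, 4 of 9 in complex III, 1 of 11 in complex IV and 7 of 17 in complex V. NDUFB9, an accessory subunit of the complex I membrane arm, had 368 CPM in MKN74 overexpression against 373 CPM in MKN74 control, and 90.2 CPM in AGS overexpression against 107 CPM in AGS control, so both MKN74 libraries lay far above both AGS libraries. Its line difference was 1.90 (SE 0.17, adjusted p = 0.00271) by limma. NDUFA3, a small membrane-arm subunit, went the other way, with 27.1 CPM in MKN74 overexpression against 26.5 CPM in MKN74 control, and 80.6 CPM in AGS overexpression against 99.6 CPM in AGS control, a line difference of -1.71 (SE 0.18, adjusted p = 0.00401) by limma.

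In complex III the line difference was 1.20 (SE 0.20, adjusted p = 0.0135) by limma for UQCRB and -1.09 (SE 0.16, adjusted p = 0.00967) for UQCR11. COX6C was the single call in complex IV, higher in MKN74 by 0.76 (SE 0.18, adjusted p = 0.032) with limma. ATP5F1 was higher in MKN74 by 1.14 (SE 0.16, adjusted p = 0.00901) and ATP5D lower by a difference of -1.24 (SE 0.18, adjusted p = 0.00932), both by limma. Among the redox core of complex I, NDUFS8 was higher in MKN74, 0.90 (SE 0.16, adjusted p = 0.0141), while NDUFS7, -1.22 (SE 0.17, adjusted p = 0.00789), and NDUFV2 were lower by the same limma fit. Each complex other than complex IV thus held calls in both directions.

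**Figure D4:**
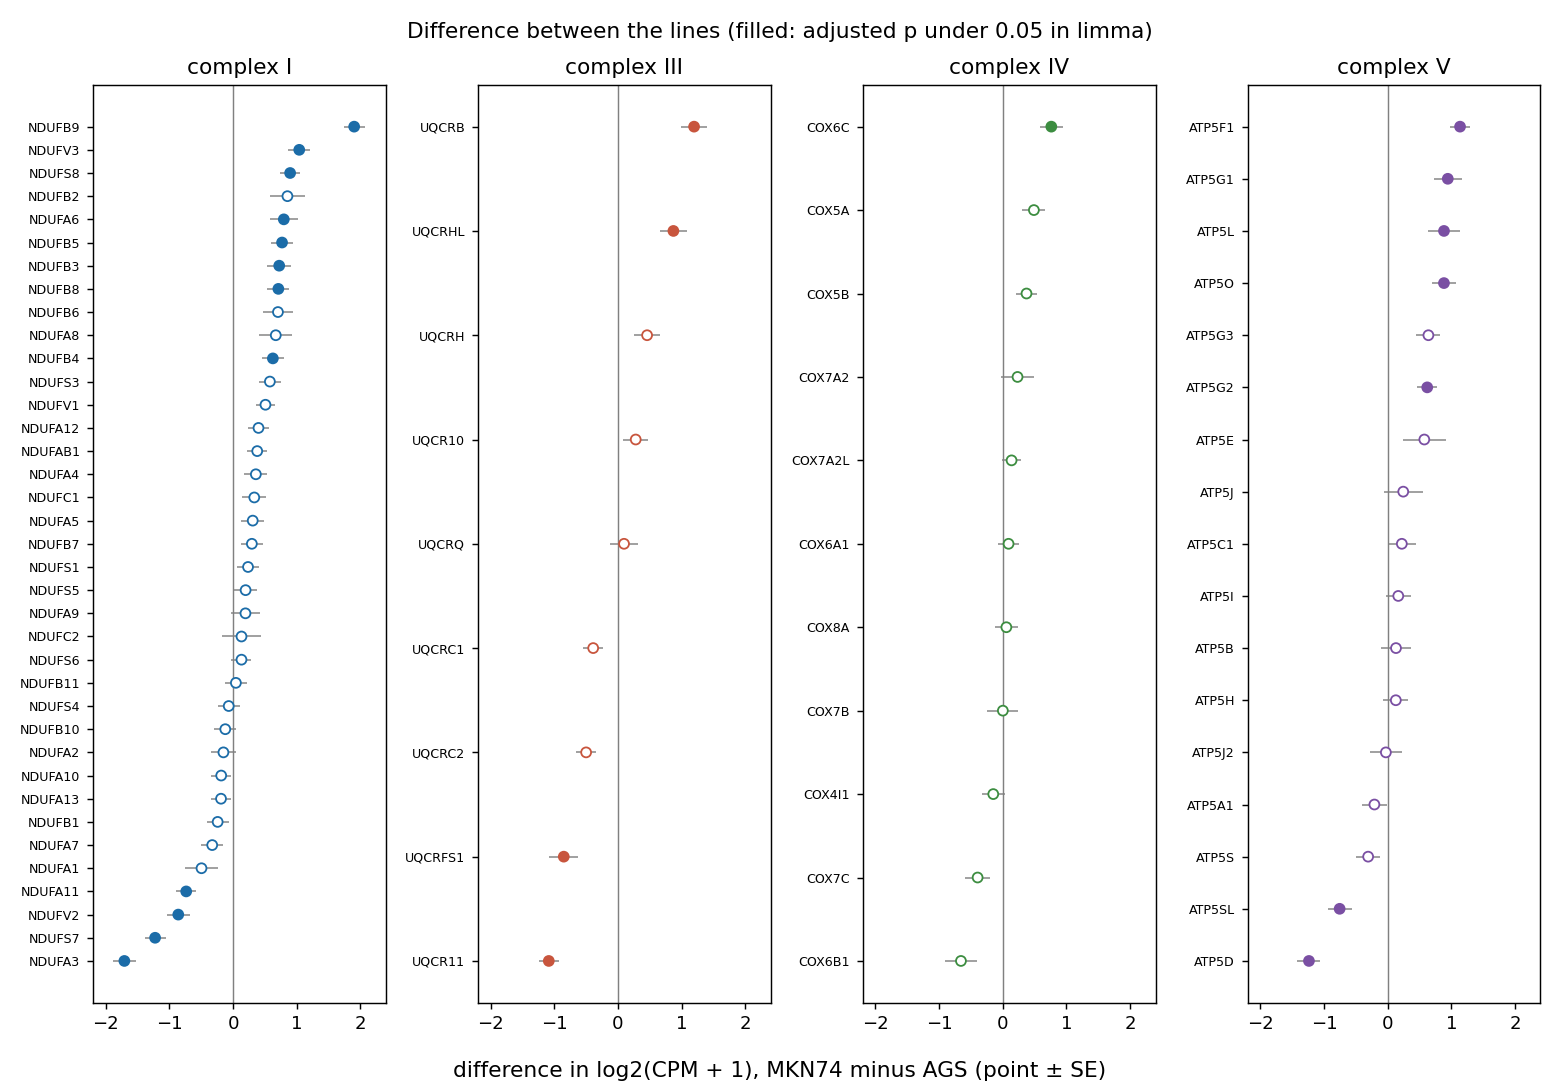
Line difference (MKN74 minus AGS, log2(CPM + 1), limma) of 74 of the 75 members by complex, as points with SE bars, filled where the adjusted p was under 0.05. The 16 filled points above 0 and 8 below 0 include NDUFB9 at 1.90 and NDUFA3 at -1.71.

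Promoter sequence was available in RefSeq (GRCh38.p14) for 61 of the 75 members, as the 300 bases described for NDUFA7. Exact matches on both strands were counted for 4 motifs of factors known to act on mitochondrial genes or named by the study. GCATGCGC, the core of the NRF1 motif, was in 11 member promoters (18.0%), against 3.27% of 27305 promoters and 5.8% of those of genes tested in AGS. CCGGAAGT, the core bound by ETS factors such as GABPA, was in 8 (13.1%), against 4.44% and 9.56% of the same sets. AAGATGGCG of YY1 was in 7 (11.5%), against 1.85% and 4.35%. ATCGAT or ATCAATA, forms of the ONECUT motif, were in 5 (8.2%), against 2.48% and 1.49%, and the genes were NDUFA11, NDUFB11, NDUFS8, COX7A2 and ATP5G1. None of these letter strings contains another. A match describes the letters and is not a bound site.

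Members with a match are set beside those without, with no test. Members with the NRF1 letters had a median AGS change of -0.30 with 5 of 11 lower, and members without them -0.32 with 24 of 50 lower. Members with the ONECUT letters had a median of -0.20 with 2 of 5 lower, and those without -0.32 with 27 of 56 lower. For the ETS letters the medians were -0.25 with 3 of 8 lower and -0.32 with 26 of 53 lower, and for the YY1 letters -0.32 with 3 of 7 lower and -0.31 with 26 of 54 lower. The lower members had promoters with a median GC content of 56.7% (29 with sequence) against 62.5% for the members not lower (32 with sequence), and the median over genes tested in AGS was 65.3%. Across the 61 members the AGS change and promoter GC content had a Pearson r of 0.244 and a Spearman rho of 0.293, against 0.053 and 0.106 over 9411 genes. In MKN74 these were -0.013 and 0.066 across the members. The part of GC content in the lower AGS values was not tested.

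The 11 promoters with the NRF1 letters are shown as windows of 28 bases around the first match, since these letters were the most common of those searched. All are on the strand of the gene, from 5′ to 3′, with capitals on the matched letters or their reverse complement. Those of ATP5J and COX5B belong to genes with AGS changes of opposite sign, -0.68 and 0.26, of which that of COX5B was within the limit. Both genes were higher by at least 0.32 in MKN74 overexpression.
NDUFA6: ctgtagatgaGCATGCGCagcacccacc
NDUFA8: gttgccggatGCGCATGCgcaggcgccg
NDUFB4: agagcacttcGCGCATGCgcatatcacc
NDUFS6: cagaagccgtGCGCATGCgttagcgcta
NDUFS7: tccggtttccGCATGCGCtccgagccgc
COX5B: gcagagctggGCATGCGCaatttccgcc
COX6A1: gagggcacacGCATGCGCacgaaggaaa
ATP5C1: gggagcttcgGCGCATGCgcgctgaggc
ATP5G2: cccgggtcacGCATGCGCtgagccttcc
ATP5I: gccgctgacgGCGCATGCgtgcgcccag
ATP5J: cactcaaagaGCGCATGCgtacagagca
In GRCh38.p14 these windows lie at chr22:42090921-42090948 (NDUFA6, minus strand), chr9:122159766-122159793 (NDUFA8, minus strand), chr3:120596167-120596194 (NDUFB4, plus strand), chr5:1801351-1801378 (NDUFS6, plus strand), chr19:1383824-1383851 (NDUFS7, plus strand), chr2:97645916-97645943 (COX5B, plus strand), chr12:120437885-120437912 (COX6A1, plus strand), chr10:7788145-7788172 (ATP5C1, plus strand), chr12:53676106-53676133 (ATP5G2, minus strand), chr4:674337-674364 (ATP5I, minus strand) and chr21:25735157-25735184 (ATP5J, minus strand).

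Genes around the complexes were read from 13 lists, to be set beside the 20.1% of all genes lower and 23.0% higher in AGS, and 13.2% lower and 14.4% higher in MKN74. Complex II, encoded wholly in the nucleus, had 1 of 4 subunits past the limit of 0.32 in AGS, SDHD, lower with a change of -0.42, and none in MKN74. CYCS, the cytochrome c that carries electrons from complex III to complex IV, was lower in both lines, with 195 CPM in AGS overexpression against 312 CPM in AGS control, and 578 CPM in MKN74 overexpression against 734 CPM in MKN74 control. CYC1, which hands electrons to it, was level, with changes of -0.05 in AGS and 0.00 in MKN74. The assembly factors of complex I had 5 of 15 lower and 1 higher in AGS, from TMEM126A at -0.64 to NDUFAF3 at 0.72, and 1 lower and 2 higher in MKN74. Those of complex IV had 11 of 23 lower and 3 higher in AGS, from PET100 at -0.71 to COX20 at 0.73, and 1 lower and 2 higher of 21 in MKN74. Those of complex III had 1 of 6 lower (BCS1L, -0.39) and 1 higher (TTC19, 0.55) in AGS, and 0 past the limit in MKN74. ATPIF1, the inhibitor of complex V, was the 1 of 4 genes of its list past the limit in AGS, with 110.0 CPM in AGS overexpression against 87.7 CPM in AGS control, a change of 0.32 where the synthase genes were mostly lower, and 0 of 4 were past the limit in MKN74.

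Other nuclear genes for mitochondria lay at similar medians in AGS. The mitochondrial ribosome had 30 of 78 genes lower and 3 higher in AGS (median -0.26), with MRPL33 at -0.76, and 1 lower and 5 higher in MKN74. That list was taken by symbol and holds 2 pseudogene rows, without which 30 of 76 were lower and 2 higher in AGS. Protein import had 10 of 21 lower and 1 higher in AGS (median -0.32), with TIMM17A at -0.78 and TOMM22 at -0.76, and 0 of 21 past that size in MKN74. Carriers of the inner membrane and VDAC channels of the outer membrane had 3 of 6 lower in AGS, among them SLC25A5, an ADP/ATP carrier, at -0.57. In MKN74 1 of 6 was higher, UCP3, with 1.53 CPM in overexpression against 0.885 CPM in control, near the filter. UCP2 was tested in AGS alone and UCP3 in MKN74 alone. Genes that copy and transcribe mitochondrial DNA had 5 of 10 lower and 1 higher in AGS (median -0.33), and 1 of 10 lower in MKN74. TFAM, which packages that DNA and starts its transcription, had 106 CPM in AGS overexpression against 148 CPM in AGS control, a change of -0.48. Nuclear regulators of mitochondrial biogenesis had 7 of 12 lower and 0 higher in AGS (median -0.38). ESRRG, a nuclear receptor that drives these genes in muscle and heart, had 3.79 CPM in AGS overexpression against 38.0 CPM in AGS control, a change of -3.02. PPARGC1A, the coactivator of such receptors, had 6.64 CPM in AGS overexpression against 14.1 CPM in AGS control, a change of -0.99. The 4 regulators with an AGS change above 0 were MYC (0.31), ESRRA (0.16), PPARGC1B (0.15) and YY1 (0.08). In MKN74, ESRRG had 0 CPM with overexpression against 0.0239 CPM in control, and PPARGC1A 0.698 CPM against 0.144 CPM. Both averaged under 1 CPM there and were left out. Of the 10 regulators tested in MKN74, 1 was lower, GABPB1 at -0.34. The part of these regulators in the lower AGS values was not tested.

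Outside the mitochondrion the pattern was not shared by all housekeeping genes. The cytosolic ribosome had 7 of 87 genes lower and 9 higher in AGS, with a median of -0.03, and 4 of 88 lower and 3 higher in MKN74. Without 10 rows that are pseudogenes or RPS19BP1, which is no ribosomal protein, 7 of 80 were lower and 7 higher in AGS, and 3 of 81 lower and 3 higher in MKN74, a choice made after the data were seen. Proliferation genes had 20 of 23 lower and 0 higher in AGS with a median of -0.54, such as MKI67 at -0.82 and CENPE at -0.96. In MKN74 1 of 23 was lower and 1 higher, BUB1B at -0.51 and PCNA at 0.44, with a median of -0.17. The part of proliferation in the lower AGS values of the oxidative phosphorylation genes was not tested.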

How the data were processed

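Libraries were grouped by cell line, title and description. Per the labels' protocols, an Illumina TruSeq RNA kit was used. Per the submitters' processing notes, the tools and build, with no role or order, were STAR 2.5.1, Bowtie2 2.1.0, edgeR 3.12.1, HOMER 4.9.1, CASAVA 1.7 and hg19. No role is stated for a read counter, annotation or strand setting in the labels used here, so overlapping, antisense and near-identical genes are uncertain.

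The authors deposited log2 values, which by the values themselves are log2(CPM + 1). Undoing the log gave whole multiples of a fixed step in each library, at most 2.6e-08 of a read from whole, so reads were recovered. A read was worth 0.0218 to 0.0244 CPM. Of 13109 rows, 18 carried a date for a name, with 0.218% to 0.239% of the reads, and were left out.

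Changes within a line covered genes averaging 1 CPM or more over its 2 libraries. Ratio intervals are Clopper-Pearson, conditional on the summed reads, and cover counting error only, as reads lacking molecular identifiers may repeat a molecule. limma fitted the log2 scale on line and overexpression, with a mean trend, over genes averaging 1 CPM or more in the 4 libraries, with Benjamini-Hochberg adjustment over all of them. The fit was run on simulated counts with known changes, made with no difference between the lines. That run does not show how the p-values behave where the lines' changes differ. The cell line pairs the libraries, which carry no replicate numbers. Nothing shows that they came from separate cultures. With 1 library per group, the p-values rest on the difference between the lines' changes, moderated across genes. They do not measure a spread between replicates, and part of that difference may be technical.

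The members, the 13 gene lists and the motifs were chosen with earlier results of these data known. Genes named were, per complex, the 3 largest AGS decreases, the 2 smallest decreases or largest increases in AGS, the largest MKN74 increase and decrease, the 2 largest line differences, core subunits and isoform pairs, and up to 2 genes per list and line. UQCRH, TFAM, NDUFC1, NDUFV3 and the genes listed only for a motif match stand outside that rule and were named after their values were seen. The values of 1 member are not reported here. Alternatives were other pseudocounts, filters, scalings, sizes, moderation and members. RefSeq promoters are of GRCh38.p14 and were matched by symbol, and no coordinates were converted. Work was done in R 4.3.3 with limma 3.58.1, and in Python 3.11.15 with scipy 1.17.1, numpy 2.4.6, matplotlib 3.10.9 and pandas 2.3.3.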

Additional observations from a re-analysis of the deposited data

Results flagged for a closer look

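ATP5J and COX7A2 stood out because their changes went opposite ways in the lines by at least 0.32 each on the log2(CPM + 1) scale. The change of ATP5J was -0.68 in AGS and 0.44 in MKN74, so the change in MKN74 minus that in AGS was 1.12. For COX7A2 the changes were -0.42 in AGS and 0.48 in MKN74, a difference of 0.90. With 1 library per group in each line, neither difference was tested.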

How the results depend on the processing

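The counts of members lower in AGS were 36 to 46 under other pseudocounts, filters, scalings and the subunits proper, against 39 as reported. The count was 46 under a common median of the libraries, where 23.0% of all genes were lower. It was 36 under quantile normalization (22.6% of all genes) and under recovered library totals (16.0% of all genes). At a size of 1.5-fold the count was 15 in AGS, against 5.73% of all genes. In MKN74 1 member was higher or lower by that size, against 4.46% of all genes lower and 6.61% higher. The median change in AGS was -0.31 under quantile normalization, and that in MKN74 was 0.10 (0.0964) under recovered library totals. Members higher in AGS were 1 under a common median, without NDUFA7, against 2 as reported, and members lower in MKN74 were 2 under quantile normalization and under recovered library totals, without COX5A, against 3. No called value changed sign. Of the values for complexes and single genes, 111 were marked as moved and 471 were not. That mark rests on a limit of each value's own, not on the size used to count members as higher or lower. Small shifts could carry it. The AGS change of ATP5A1 was marked as moved at -0.58 under a common median of the libraries, against -0.54 as reported. The shared overexpression effect called 0 genes in every setting tried. Line differences numbered 17 members without a mean trend, where 4945 of 12340 genes were called. They numbered 24 to 27 members under the other settings, where 4386 to 5676 genes were called. Leaving out the cell line, with no replicate block, gave 0 genes called for overexpression. Leaving out overexpression gave 27 members and 5305 of 12340 genes for the line. Leaving out replicates was not possible with 1 library per group. Depth limited the lowest member, ATP5E with 58 reads in AGS overexpression, more than the others.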
